A study of Rattus norvegicus with 4 samples.

Results

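The C1q and TNF related genes encode a family of secreted proteins that resemble adiponectin, and 9 of them were examined here in rat tail tendon fibroblasts given the releasate of a platelet-rich or a platelet-poor plasma clot. The members were taken by gene symbol: every probe set of the array that the platform annotation pairs with C1qtnf1, C1qtnf2, C1qtnf3, C1qtnf4, C1qtnf5, C1qtnf6, C1qtnf7, C1qtnf9 or C1qtnf12 as its single gene. All 9 genes had a probe set and C1qtnf9 had 2, which gave 10 probe sets of 14824 with a single gene symbol, or 9 of 14557 genes. The family was chosen by a measured value of these arrays, the log2 difference of C1qtnf3 between PRP and PPP, which is among the largest falls, and its other members were added by name. Differences of members between the treatments are therefore given as a description, with no test of the family.

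The fibroblasts came from the tail tendons of Lewis rats that were retired breeders and were cultured inside gels of type I collagen. After 2 days in medium with 10% fetal bovine serum, the cells received 24 hours in a medium without that serum and with 10% clot releasate, of PRP in one group and of PPP in the other. The labels give only these abbreviations, which are taken in their usual sense of platelet-rich and platelet-poor plasma. Each group had 2 arrays, and both groups shared the rat strain, the collagen gel, the antibiotic and antimycotic supplement and the serum phase. The labels do not say whether the 2 arrays of a group came from separate animals or cultures, so the p-values below reflect array-to-array spread that could be purely technical. The plasma donors are not given in the labels. No untreated arrays were analysed here, so every value sets PRP against PPP.

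Proteins of the C1q and TNF related family carry a globular C1q domain at the C-terminal end, whose fold is shared with tumour necrosis factor. In most members a collagen-like stretch of Gly-X-Y repeats precedes it, and the chains assemble into trimers and larger complexes, as adiponectin does. Fat tissue and stromal cells secrete many of them, and they have been studied mainly, in mice and in human cells, as regulators of glucose and lipid use, inflammation, cartilage growth and vessel tone.

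Sequence upstream of the gene is shown for 4 members, taken by the length of sequence at hand and not by their values. RefSeq windows on the GRCr8 assembly, from 250 bases before to 50 bases after a transcript start, matched 6 of the 9 members. In C1qtnf2, C1qtnf3, C1qtnf6 and C1qtnf12 at least 50 bases of the window lay before the outermost annotated start of the gene, and that part is printed 5′ to 3′ on the strand of the gene. In C1qtnf3, C1qtnf6 and C1qtnf2 both PRP arrays lay below both PPP arrays, and in C1qtnf12 the groups overlapped. Capitals mark matches, on either strand, to the AP-1 letters TGANTCA, to the E-box letters CANNTG, to the GC-box letters GGGCGG or to the TATA-box letters TATAAA, some of which overlap.
C1qtnf3, chr2:61644066-61644224, plus strand: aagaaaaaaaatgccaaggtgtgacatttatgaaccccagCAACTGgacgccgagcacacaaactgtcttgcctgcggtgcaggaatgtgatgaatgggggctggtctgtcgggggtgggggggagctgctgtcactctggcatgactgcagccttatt
C1qtnf6, chr7:111964949-111965114, minus strand: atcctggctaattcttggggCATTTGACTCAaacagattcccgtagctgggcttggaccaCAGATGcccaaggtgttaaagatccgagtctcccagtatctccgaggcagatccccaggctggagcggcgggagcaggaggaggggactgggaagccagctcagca
C1qtnf2, chr10:28443205-28443325, plus strand: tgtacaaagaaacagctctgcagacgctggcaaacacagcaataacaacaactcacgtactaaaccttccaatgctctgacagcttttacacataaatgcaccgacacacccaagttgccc
C1qtnf12, chr5:171833604-171833853, plus strand: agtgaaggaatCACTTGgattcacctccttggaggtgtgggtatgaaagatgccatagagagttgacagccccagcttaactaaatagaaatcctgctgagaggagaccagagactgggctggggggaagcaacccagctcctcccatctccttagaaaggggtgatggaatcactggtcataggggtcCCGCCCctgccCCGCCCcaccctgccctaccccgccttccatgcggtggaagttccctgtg
The printed part of C1qtnf3 held 1 E-box and that of C1qtnf2 held no match to any of these letters. The part of C1qtnf6 held 1 AP-1 match that overlaps an E-box, and 1 further E-box. The part of C1qtnf12 held 2 GC boxes and 1 E-box. Over all 33469 RefSeq windows of 300 bases, AP-1 letters occurred in 7.33%, an E-box in 72.1%, a GC box in 33.1% and a TATA box in 14.2%. In the full windows of the 6 members AP-1 letters occurred in C1qtnf6, GC boxes in C1qtnf2, C1qtnf6 and C1qtnf12, the TATA-box letters in C1qtnf3, and E-boxes in all but C1qtnf7. A match describes these letters and is not a binding site.

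Every family member had a lower mean level with PRP than with PPP, by amounts that ranged from 6.39-fold in C1qtnf3 to 1.02-fold in the dimmer probe set of C1qtnf9. Levels are log2 values after RMA, the summary of an Affymetrix probe set that corrects background and equalises the distributions of the arrays. The median log2 difference, PRP minus PPP, was -0.50 over the 9 genes, against -0.0025 over all named genes. All 10 probe sets had a difference below 0 (9 with median centring of the arrays), as had 50.7% of all named probe sets. In 7 of the 10 probe sets both PRP arrays lay below both PPP arrays. That pattern of no overlap with PRP lower was found in 22.5% of all named probe sets, and no overlap in either direction in 46.4%. At an adjusted p below 0.05 in the limma fit over all named probe sets, 2 of the 10 were called, C1qtnf3 and C1qtnf5, both lower with PRP. Of all named probe sets 1.02% were called as lower, 0.83% as higher and 1.85% in either direction. The contrast helped to choose the family, so nothing is read from these counts.

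**Figure D1:**
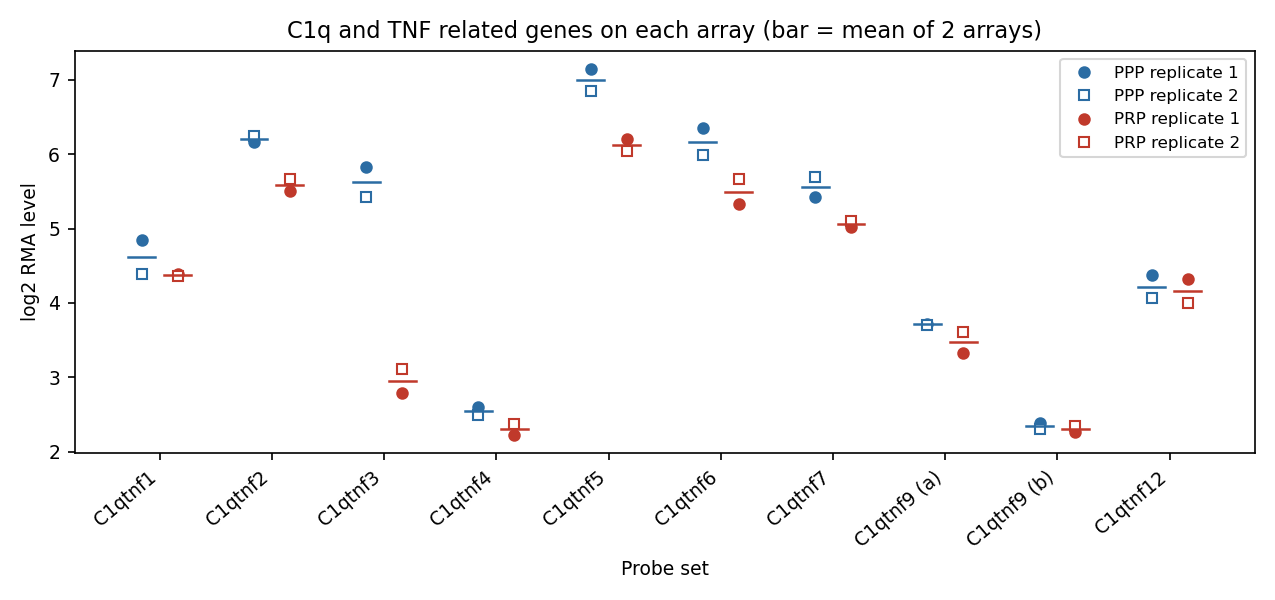
Log2 RMA level of each family probe set (x axis) on the 4 arrays, with PPP in blue and PRP in red, filled circles for replicate 1, open squares for replicate 2 and a bar at the mean of the 2 arrays. Both PRP arrays lie below both PPP arrays in 7 of the 10 probe sets, with the widest gap in C1qtnf3, whose difference chose the family. That pattern was found in 22.5% of all named probe sets, and no overlap in either direction in 46.4%. Nothing is read from the count. Levels may be compared within a probe set and not between probe sets.

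C1qtnf3, C1qtnf5 and C1qtnf6 are the members best known from connective tissue and the eye. C1qtnf3 encodes a protein also called cartducin or cartonectin, which in mice stimulates the growth of cartilage precursor cells and in human cells dampens inflammatory signals. Its log2 level was 5.82 and 5.43 on the PPP arrays and 2.79 and 3.11 on the PRP arrays. The groups were 2.32 log2 units apart at their nearest values, while the arrays within a group differed by 0.40 with PPP and 0.32 with PRP. The PPP mean of 5.62 ± 0.28 and the PRP mean of 2.95 ± 0.23 (SD over 2 arrays) gave a difference of -2.68 (SE 0.18; 95% interval -3.12 to -2.23). This was the 3rd most negative difference of the 14824 named probe sets. The level with PRP was low and may be background, in which case the fold understates the difference.

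C1qtnf5 encodes a short member of the family that in humans is expressed with the membrane frizzled-related protein gene MFRP from one locus and is linked to a late-onset retinal degeneration. Its log2 level was 7.14 and 6.86 with PPP and 6.20 and 6.04 with PRP. The lower PPP array was 0.65 above the higher PRP array. The difference was -0.88 (SE 0.14; 95% interval -1.23 to -0.53), or 1.84-fold lower with PRP. Mfrp lies next to C1qtnf5 in the GRCr8 gene table. Mfrp stood at 4.18 and 3.76 with PPP and at 3.55 and 3.49 with PRP, also without overlap, and its difference of -0.45 (SE 0.16) missed the threshold (adjusted p = 0.257 by limma). Transcripts that span both genes could contribute to both probe sets, which was not tested.

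C1qtnf6 encodes a protein that in mice restrains the alternative pathway of complement and protects joints in arthritis. It was at 6.35 and 5.99 with PPP and at 5.33 and 5.67 with PRP. Both PRP values were the lower ones, and the gap of 0.32 between the groups was narrower than the spread within them, which was 0.37 with PPP and 0.34 with PRP. The difference was -0.67 (SE 0.18; 95% interval -1.11 to -0.23).

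Among the members studied for their effects on metabolism, C1qtnf2 and C1qtnf7 were lower on both PRP arrays, and C1qtnf1 and C1qtnf12 overlapped between the groups. C1qtnf2, whose protein in mice promotes fat oxidation and lipid clearance, was at 6.16 and 6.24 with PPP and at 5.50 and 5.66 with PRP. Its gap of 0.50 exceeded the spread within either group, and the difference was -0.62 (SE 0.11; 95% interval -0.90 to -0.33). Limma did not call it, and called it with an intensity trend or after cyclic loess. C1qtnf7, whose protein affects insulin sensitivity in mice, was at 5.42 and 5.69 with PPP and at 5.02 and 5.10 with PRP. The groups did not overlap, with a difference of -0.50 (SE 0.13; 95% interval -0.81 to -0.18).

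C1qtnf1 encodes a protein that binds collagen and in primates hinders the attachment of platelets to it. Its log2 level was 4.84 and 4.38 with PPP and 4.40 and 4.36 with PRP. PPP replicate 1 alone was high, and PPP replicate 2 lay between the 2 PRP arrays. The difference of -0.24 (SE 0.17; 95% interval -0.65 to 0.18) was -0.0062 without PPP replicate 1. C1qtnf12 encodes adipolin, a hormone of fat tissue that improves insulin action in mice. It stood at 4.37 and 4.06 with PPP and at 4.32 and 3.99 with PRP, so that the values of the groups interleaved. The difference was -0.06 (SE 0.17), with a 95% interval from -0.47 to 0.35.

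C1qtnf9 and C1qtnf4 had low levels throughout. C1qtnf9 encodes a close relative of adiponectin that in mice acts on heart and vessels. The brighter of its 2 probe sets was at 3.72 and 3.70 with PPP and at 3.33 and 3.61 with PRP, a gap of 0.09 between the groups, and a difference of -0.24 (SE 0.13; 95% interval -0.56 to 0.08). The dimmer one was at 2.38 and 2.30 with PPP and at 2.26 and 2.35 with PRP, and its groups overlapped (difference -0.03, SE 0.11). The 2 probe sets of C1qtnf9 thus had differences of the same sign, and only the brighter one separated the groups. C1qtnf4 encodes a protein with a pair of C1q domains and no collagen-like stretch, which in mice acts in the brain on feeding. It was at 2.60 and 2.49 with PPP and at 2.22 and 2.38 with PRP, with a difference of -0.25 (SE 0.12; 95% interval -0.53 to 0.04). The probe set of C1qtnf4 and the dimmer one of C1qtnf9 lay in the lowest 25% of named probe sets by mean level, where a difference may be hidden by background.

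**Figure D2:**
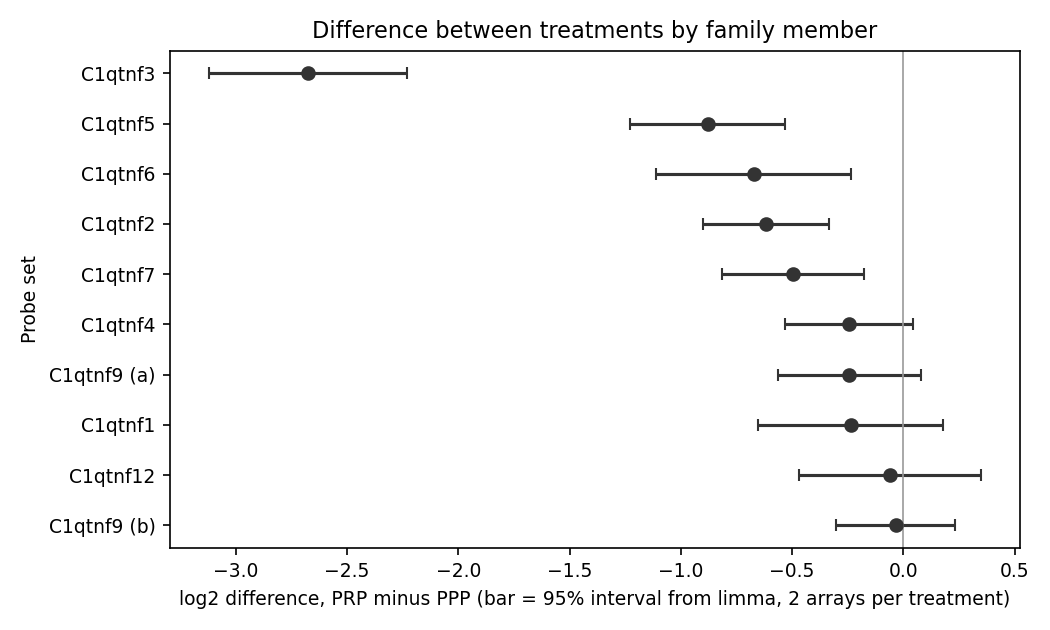
Log2 difference, PRP minus PPP (x axis), of each family probe set (y axis), with bars for limma's 95% interval from 2 arrays per treatment. The interval lies below 0 for C1qtnf3, C1qtnf5, C1qtnf6, C1qtnf2 and C1qtnf7 and spans 0 for the other 5 probe sets. An interval without 0 goes with an unadjusted p under 0.05 by limma, found in 16.3% of all named probe sets. The contrast helped to choose the family, so nothing is read from this count. The interval of C1qtnf3 (-3.12 to -2.23) lies apart from all others. Its difference chose the family, so that place is not read as a result.

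With 1 array left out, the difference of C1qtnf3 ran from -2.87 to -2.48, a description of the value that chose the family. Its call was absent when all 36685 probe sets of the table entered the fit (adjusted p = 0.0868 by limma). With any 1 array left out, the difference of C1qtnf5 ran from -1.02 to -0.73, and its call was absent. Those fits kept 1 residual degree of freedom, and calls over all named probe sets were fewer in each of them.

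The genes whose values ran most like those of C1qtnf3 over the 4 arrays were Fmod, Cilp, Jag1, Pgf and Aoc3. Likeness was the Euclidean distance between log2 values centred on the mean of the 4 arrays, over 14556 other genes, and the distances were 0.33, 0.47, 0.56, 0.66 and 0.67. With 2 groups of 2 arrays this measure mostly picks genes with a difference of similar size. Fmod, a proteoglycan that binds collagen fibrils, was at 8.71 and 8.41 with PPP and at 6.12 and 6.14 with PRP. Cilp, the cartilage intermediate layer protein, was at 6.47 and 6.05 with PPP and at 3.59 and 3.27 with PRP. Pgf, placental growth factor, was at 5.55 and 5.44 with PPP and at 3.37 and 3.48 with PRP. Fmod, Cilp and Pgf were also higher on PPP replicate 1 than on PPP replicate 2, as was C1qtnf3. Between the PRP arrays, C1qtnf3, Fmod and Pgf were higher on replicate 2, and Cilp was lower on it. The distance was taken over these same values, so nothing is read from the order of replicates. Jag1, a Notch ligand, and Aoc3, a cell-surface amine oxidase, had differences of -2.17 (SE 0.12) and -2.07 (SE 0.15).

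**Figure D3:**
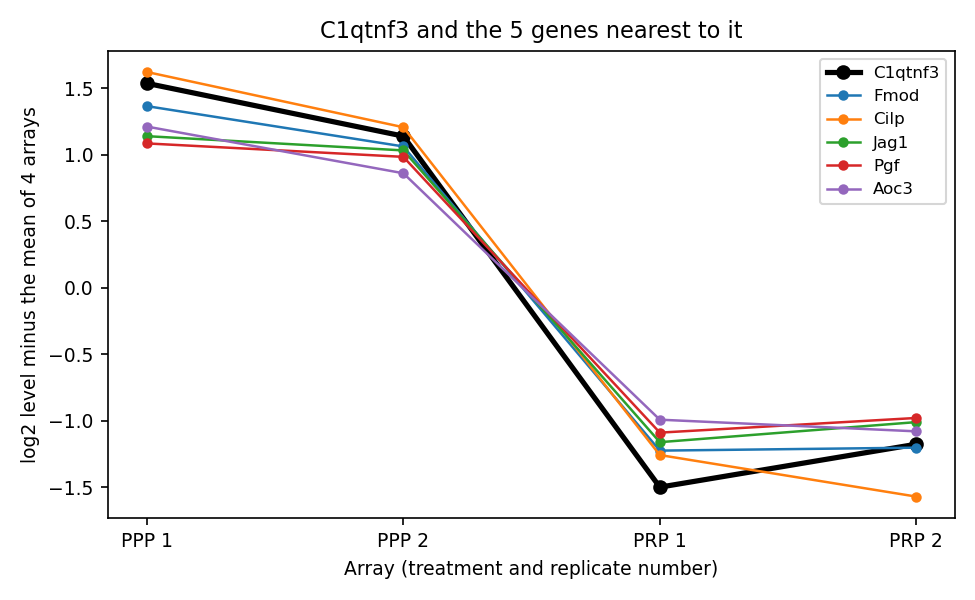
Log2 level minus the mean of the 4 arrays (y axis) on each array (x axis) for C1qtnf3, in black, and the 5 genes at the smallest Euclidean distance from it, in colours. All 6 lines are above 0 on both PPP arrays and below 0 on both PRP arrays. Distances run from 0.33 (Fmod) to 0.67 (Aoc3).

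Limma called none of the 9 measured genes that flank a family member on its chromosome, and 1.85% of all named probe sets. With so few genes nothing is read from that count. Amacr, an enzyme of branched-chain fatty acid breakdown next to C1qtnf3 in the GRCr8 gene table, was at 4.43 and 4.91 with PPP and at 4.52 and 4.62 with PRP. Its groups overlapped, with a difference of -0.10 (SE 0.18; adjusted p = 0.847 by limma). Of the 18 protein-coding genes that flank the 9 members, 9 had a named probe set, 0 were called by limma, and their differences ran from -0.45 (Mfrp) to 0.20 (Slu7, a splicing factor beside C1qtnf2). The flanking genes were added after values had been seen.

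Other genes with a C1q domain did not pass the test in either direction. Of 23 listed, 16 had a named probe set, and the median log2 difference was -0.07. Limma called 0 of the 16, and 1.85% of all named probe sets. An unadjusted p under 0.05 was found in 2 of the 16, and in 16.3% of all named probe sets. Col8a1, a short-chain collagen with a C1q domain, was at 7.36 and 7.16 with PPP and at 8.05 and 7.95 with PRP. Its values were higher on both PRP arrays, opposite to the direction of the C1qtnf members, and the difference of 0.73 (SE 0.12) missed the threshold (adjusted p = 0.0532 by limma). It passed with an intensity trend, without dim probe sets or after median centring, as given in the closing section. C1qa, the A chain of complement C1q, had a difference of -0.59 (SE 0.14, adjusted p = 0.133 by limma), whereas C1qb and C1qc, the other chains of the same protein, had 0.06 and -0.10. Adipoq, adiponectin itself, was at 2.82 and 2.75 with PPP and at 2.63 and 2.97 with PRP, low values that overlapped.

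A list of receptors and adaptors showed no call. It holds the adiponectin receptors, relatives of them and other receptors, and also Mfrp, which was counted among the flanking genes. Of 15 listed genes 14 were measured, and the median log2 difference was 0.03. Limma called 0 of the 14, and 1.85% of all named probe sets. An unadjusted p under 0.05 was found in 5 of the 14, and in 16.3% of all named probe sets. Adipor1 and Adipor2, the adiponectin receptors, had differences of 0.02 and 0.13 (SE 0.10 each), and both stood between 7.31 and 7.93 on all 4 arrays. Cdh13, T-cadherin, which binds adiponectin at the cell surface, was at 8.31 and 8.14 with PPP and at 7.61 and 7.27 with PRP. Its groups did not overlap, and the difference of -0.78 (SE 0.15) missed the threshold (adjusted p = 0.0791 by limma). Paqr9 and Paqr3, members of the adiponectin receptor family, had differences of opposite sign, -0.40 (SE 0.10, adjusted p = 0.149) and 0.39 (SE 0.11, adjusted p = 0.173 by limma), neither past the threshold. Paqr3 was at 4.74 and 4.63 with PPP and at 5.09 and 5.06 with PRP. The groups did not overlap for either gene, as was found in 46.4% of all named probe sets in either direction. Appl1, an adaptor that binds the adiponectin receptors, had -0.26 (SE 0.10, adjusted p = 0.306 by limma).

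AMP-activated protein kinase, an energy sensor that several of these proteins activate in mice, was covered by 8 measured genes of 18 listed. Limma called 1 of them as lower with PRP and 0 as higher, against 1.02% and 0.83% of all named probe sets. The median log2 difference was -0.17. The called gene was Sesn3, a stress-induced sestrin that acts upstream of the kinase and of mTOR. It fell from 5.65 and 5.45 with PPP to 4.54 and 4.71 with PRP, a difference of -0.92 (SE 0.13, adjusted p = 0.0318 by limma). That call was absent from each of the 4 fits on 3 arrays (adjusted p from 0.0901 to 0.210) and with a replicate block (0.106). Sesn2, a related sestrin, had a difference of -0.64 (SE 0.15, adjusted p = 0.129). The catalytic subunit gene Prkaa1 had a difference of 0.0015 (SE 0.13).

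Enzymes and chaperones modify collagen-like stretches, which the family shares with the collagens. Of 13 such genes listed 8 were measured, with a median log2 difference of -0.18. Limma called 0 of the 8, and 1.85% of all named probe sets. An unadjusted p under 0.05 was found in 4 of the 8, and in 16.3% of all named probe sets. Colgalt1, a collagen galactosyltransferase, and P4ha1, a prolyl hydroxylase subunit, had differences of -0.40 and -0.38 (SE 0.10 each, adjusted p = 0.154 and 0.174 by limma). Neither overlapped between the groups, as was found in 46.4% of all named probe sets in either direction.

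**Figure D4:**
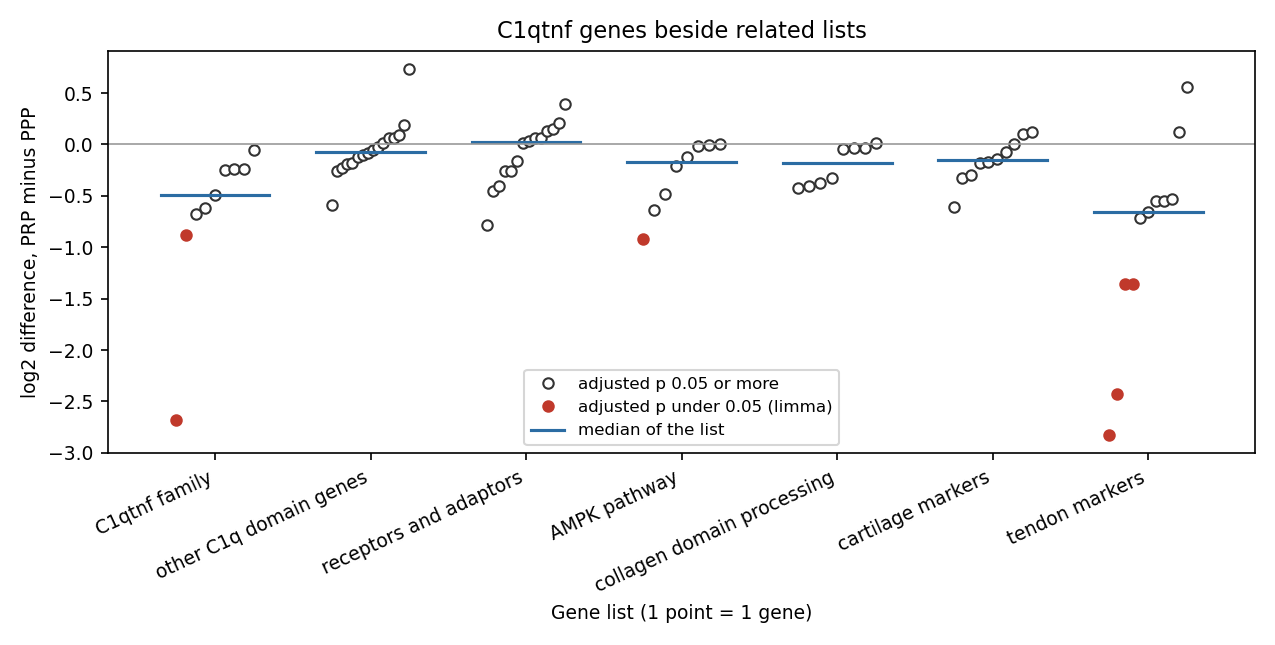
Log2 difference, PRP minus PPP (y axis), of each measured gene in the family and in 6 other lists (x axis), filled where limma's adjusted p over all named probe sets was below 0.05, with a line at the median of each list. The median is -0.50 in the family, -0.07 in the other C1q domain genes and -0.66 in the tendon markers.

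Several tendon markers fell beside C1qtnf3. Of 11 measured on a list of 12, limma called 4 as lower with PRP (Fmod, Cilp, Tnmd and Kera) and 0 as higher. Their adjusted p by limma ran from 0.00271 to 0.00861, and the median log2 difference of the list was -0.66. Of all named probe sets 1.02% were called as lower and 0.83% as higher. The list was drawn up with earlier results of these data known, and Fmod and Cilp are also among the genes nearest to C1qtnf3. Cilp, though named for cartilage, was placed on this list and not on the cartilage list. Nothing is therefore read from the count. Tnmd and Kera missed the threshold when either PPP array or PRP replicate 2 was absent (highest adjusted p 0.0742), while Fmod and Cilp passed in each fit on 3 arrays. The summed log2 level of the 11 markers was 84.7 and 83.3 with PPP and 74.2 and 73.2 with PRP. That sum includes Fmod and Cilp, with differences of -2.43 and -2.83. Of the 11 differences 9 were below 0 and 2 above. Scx, a transcription factor of the tendon lineage, was measured at 6.77 with PPP and 6.22 with PRP, and missed the threshold (adjusted p = 0.139 by limma). Tnmd, a membrane protein characteristic of tendon, was low with PRP, at 3.11 against 4.46 with PPP. Not every marker of the list was lower with PRP. Dcn, the proteoglycan decorin, was at 9.18 and 9.13 with PPP and at 9.74 and 9.70 with PRP, higher on both PRP arrays, and its difference of 0.56 (SE 0.10) missed the threshold (adjusted p = 0.0709 by limma) but passed as higher with an intensity trend or median centring. Thbs4, a thrombospondin of tendon, had a difference of 0.12 (SE 0.13) and overlapping groups. In these cultures fewer cells of a type and less RNA per cell cannot be told apart. The part of the tendon markers in the differences of the family was not tested.

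Cartilage markers were examined because C1qtnf3 is known from cartilage. Limma called 0 of 10 measured of 15 listed, and 1.85% of all named probe sets. Cilp, the cartilage intermediate layer protein, was placed on the tendon list, so its call as lower is not in that count. An unadjusted p under 0.05 was found in 2 of the 10, and in 16.3% of all named probe sets. The summed log2 level of the 10 markers was 34.3 and 32.7 with PPP and 31.7 and 32.2 with PRP. Acan, the cartilage proteoglycan aggrecan, stood at 5.82 with PPP and 5.49 with PRP, and Col2a1, the main cartilage collagen, at 2.79 and 2.91, low values with overlapping groups. Chad, chondroadherin, and Matn3, a matrilin, had differences of -0.61 and -0.30 (adjusted p = 0.125 and 0.287 by limma).

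Over the 5 lists of other cell types, cartilage included, limma called 2 of 41 measured markers, and 1.85% of all named probe sets. Fabp4, a fatty acid binding protein of adipocytes, rose by 1.61 (SE 0.16, adjusted p = 0.0110 by limma), and Acta1, skeletal muscle actin, fell by 1.12 (SE 0.17, adjusted p = 0.0429). Fabp4 missed the threshold when either PPP array or PRP replicate 2 was absent (adjusted p up to 0.0834), and Acta1 in every fit on 3 arrays (up to 0.237). Of the adipocyte list 7 of 10 markers were measured and 1 was called, with a summed log2 level of 23.0 to 23.1 with PPP and 23.6 to 25.03 with PRP. That sum includes Fabp4 with its rise of 1.61. The median log2 difference of the list was 0.0060, with 3 markers below 0 and 4 above. Cidec, a lipid droplet protein, had the next smallest p on it, with a difference of -0.28 (adjusted p = 0.387 by limma). The macrophage list, with 10 of 12 measured and 0 called, summed to 31.9 to 33.0 with PPP and 31.6 in both PRP arrays. Its nearest members were Tyrobp, a myeloid adaptor, at -0.87 (adjusted p = 0.0559 by limma, and past the threshold as lower in 4 alternatives given in the closing section) and Fcer1g, an Fc receptor chain, at 0.55 (0.105), and Ptprc, the pan-leukocyte marker CD45, was low at 2.20 and 2.13. The endothelial list, with 7 of 9 measured and 0 called, summed to 20.3 to 20.7 with PPP and 21.2 to 22.0 with PRP, led by Tek at 0.68 (0.122) and Vwf at 0.22 (0.427). The skeletal muscle list, with 7 of 8 measured, summed to 27.7 in both PPP arrays and 26.6 to 27.7 with PRP, and its second marker, Actn3, had a difference of 0.47 (0.164). The part of these markers in the family's differences was not tested.

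Over the whole series the limma fit called 274 of 14824 named probe sets, 123 higher and 151 lower with PRP. Arrays of one treatment correlated at r = 0.994 (PPP) and 0.995 (PRP), and those of different treatments at 0.987 to 0.990. Each r is taken over probe sets, which do not count as replicates.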

How the data were processed

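Log2 values of 36685 probe sets were deposited for 4 arrays, 2 per treatment. Per the submitters' processing notes the authors used oligo, RMA and limma, with no version, role or order given, and the deposited log2 values have the form that RMA gives. Per the labels' protocols, 15 ng of total RNA gave the cDNA, of which 3 ug was labelled with biotin. The array's genome build is not given in the sources used here. No scanner file entered the work, hence there are no detection calls, and precision is set by the few arrays.

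The platform annotation gave 14824 probe sets with 1 gene symbol, 829 with several and 21032 with none. All 9 members matched the GRCr8 gene table by Entrez identifier. None of the 10 family probe sets repeated the values of another. The treatments were contrasted with limma 3.58.1 under R 4.3.3 (lmFit, eBayes, no trend, two-sided), with Benjamini-Hochberg adjustment over all named probe sets and 2 residual and 3.87 prior degrees of freedom. It was tested on simulated data. For a gene with several probe sets, lists used the one with the highest mean. Levels are mean ± SD.

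The members and lists were chosen with earlier results of these data known. Named genes were all members, the called genes and the 2 of smallest p in each other list, 5 genes nearest to C1qtnf3 and defining tissue markers, of which Pecam1 had no named probe set. C1qb, C1qc, Appl1, Adipor1, Adipor2, Paqr3, Prkaa1, Dcn, Thbs4 and the flanking genes Mfrp, Amacr and Slu7 lie outside that rule and were named after their values were seen. Alternatives are in the closing section. Whether replicate numbers pair the arrays was checked by the correlation of deviations from the group means, r = 0.0056, and they were not taken as pairs. A low r over all named probe sets cannot exclude a pairing that acts on some genes, so a fit with the replicate number as a block is given as well.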

Additional observations from a re-analysis of the deposited data

How the results depend on the processing

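All named probe sets gave 274 calls, 808 with an intensity trend (444 higher and 364 lower), 2 when all 36685 probe sets entered the fit, and 56 to 81 with 1 array left out. Centring the arrays on their medians gave 198 higher and 176 lower, against 123 and 151. With the replicate number as a block, a pairing that the correlation (r = 0.0056) did not show and cannot exclude, the calls numbered 123. In the family the replicate block left 1 call, C1qtnf3, and the calls numbered 3 with a trend or cyclic loess (C1qtnf2 the third, adjusted p = 0.0186 and 0.0485 by limma, against 0.0713), 0 with all probe sets in the fit (C1qtnf3 at 0.0868) and 1 with any 1 array left out (C1qtnf5 at 0.0881 to 0.258). The family median stayed between -0.56 and -0.46 in every alternative. All 10 probe sets were below 0 except C1qtnf12 without PPP replicate 1 (0.095) or PRP replicate 2 (0.10), and the dimmer C1qtnf9 probe set after median centring (0.0019) or without PPP replicate 1 (0.0048) or PRP replicate 1 (0.012).

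Calls among other C1q domain genes went from 0 to 1 (Col8a1) with a trend (adjusted p = 0.00271 by limma), without dim probe sets (0.0424) or with median centring (0.0288), and stayed at 0 with 1 array left out. Calls among receptors and adaptors went to 1 (Cdh13) with a trend, and those among collagen domain processing genes to 3. The 1 call of the AMPK list became 0 with all probe sets, with the replicate block and with any 1 array left out. Tendon markers gave 9 calls with a trend (8 lower, and Dcn higher), 5 after median centring (4 lower, and Dcn higher), 0 with all probe sets and 2 to 4 with 1 array left out. Markers of other cell types gave 3 with a trend, without dim probe sets, with median centring or with cyclic loess, where Tyrobp passed as lower (adjusted p = 0.0271, 0.0476, 0.0280 and 0.0395 by limma), 0 with all probe sets, 1 (Fabp4) with the replicate block and 0 to 1 with 1 array left out. With 1 array left out, differences of genes outside the family that changed sign were those of Adipoq, which ran from -0.155 to 0.189, Col2a1, from -0.142 to 0.380, Ptprc, from -0.205 to 0.0713, C1qb, from -0.200 to 0.328, C1qc, from -0.260 to 0.0543, Amacr, from -0.341 to 0.145, Adipor1, from -0.0141 to 0.0460, and Prkaa1, from -0.0986 to 0.102. Cyclic loess also turned Adipor1 (-0.0208) and Prkaa1 (-0.0375). The cause of these changes was not tested. The fits on 3 arrays kept 1 residual degree of freedom and assume that the lone array varies like the other group. Low signal limits C1qtnf4, C1qtnf9 and C1qtnf3 with PRP, since a value near background has no reliable fold.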
